A study of Rattus norvegicus with 6 samples.

Results

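The genes of glycolysis and of the pyruvate dehydrogenase complex were examined in the testes of diabetic and non-diabetic rats, as 34 gene symbols of the 35291 genes in the deposited expression table, each of which labelled 1 row. They are the enzymes from hexokinase to pyruvate kinase (22 genes), the subunits of the pyruvate dehydrogenase complex (6 genes), and its kinases and phosphatases (6 genes). Of these, 5 are isoforms known from male germ cells, Gapdhs, Pgk2, Pdha2, Eno4 and Pgam2, and 5 are their somatic counterparts, Gapdh, Pgk1, Pdha1, Eno1 and Pgam1.

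RNA-Seq had been performed on whole testicular tissue of Sprague-Dawley rats, with 3 libraries from diabetic (DM) and 3 from non-diabetic (Nor) animals. DM rats had been fed a high-fat diet and then injected intraperitoneally with streptozotocin (STZ) at 35 mg/kg, a toxin of the insulin-producing beta cells, and RNA was taken 8 weeks later, as a model of type 2 diabetes. Nor rats had received citrate buffer, and the methods do not state whether they were also given the high-fat diet, so that diet and STZ cannot be told apart in these groups. The labels do not say whether each library came from 1 animal, so that the p-values measure the spread between libraries. Ages are not given.

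Glycolysis splits glucose into pyruvate and yields ATP, and the pyruvate dehydrogenase complex turns pyruvate into acetyl-CoA for the mitochondria. In the seminiferous epithelium, Sertoli cells are known to use glucose and to feed lactate to spermatocytes and spermatids, while sperm rely on glycolytic enzymes anchored along the tail. Several of these enzymes are replaced by isoforms of their own during spermatogenesis. Pgk1 and Pdha1 lie on the X chromosome, which is silenced in meiosis, and Pgk2 and Pdha2 are autosomal copies that serve in their place.

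Values are FPKM, the fragments mapped to a gene scaled to its length and to the size of the library, so that levels can be compared between genes. The sum over all genes was 453304 to 478211 FPKM per library. Relative depth was estimated from the commonest ratio between each pair of libraries among genes with less than 1 FPKM in both. As few as 36 genes held that ratio. The estimate was 0.966 to 1.092 in DM and 0.893 to 1.02 in Nor libraries around a mean of 1. The number of reads is unknown. The tissue was checked against cell type markers. Elongating spermatid markers (7 genes, among them Prm1 and Tnp1) summed to 15788 to 16816 FPKM in DM and 14734 to 17151 FPKM in Nor libraries, and Sertoli cell markers (6 genes) to 308 to 325 and 260 to 328 FPKM. Spermatogonia markers (6 genes) summed to 57.4 to 68.7 FPKM in DM and 53.4 to 57.3 FPKM in Nor libraries. Most of that sum was Uchl1, at 43.5 to 53 FPKM in DM and 35.6 to 40.9 FPKM in Nor libraries. The log2 fold change was negative for 4 of the 6 genes. Kit was lower and Uchl1 higher at an unadjusted limma p-value below 0.05. Spermatocyte markers (7 genes) summed to 301 to 330.1 FPKM in DM and 297 to 322 FPKM in Nor libraries, with 1 higher at that threshold. Round spermatid markers (6 genes) summed to 529 to 610.2 FPKM in DM and 533 to 613 FPKM in Nor libraries, with none called. Leydig cell markers (5 genes measured of 6 listed) summed to 26.8 to 55.4 FPKM in DM and 81.6 to 115 FPKM in Nor libraries, and all 5 were lower in DM at an unadjusted limma p-value below 0.05. Of the 5 macrophage markers 3 were lower at that threshold, with summed levels of 8.56 to 8.91 FPKM in DM and 10.4 to 13.1 FPKM in Nor libraries. In whole tissue, fewer cells of a type and less RNA per cell cannot be told apart. The study reports, by histology, reduced spermatogenesis in all DM testes, and a lower testis weight relative to body weight. It also reports an apparent rise of apoptotic sperm cells and somatic cells by TUNEL staining, Leydig cells above all. Testosterone was lower in serum and in testis tissue of its DM rats. Because FPKM are scaled to the size of the library, the marker sums are relative levels, and amounts per testis were not measured.

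At most of the reactions with a germ-cell isoform, that isoform was the more abundant of the pair, and the DM and Nor libraries overlapped for all 5 germ-cell isoforms. Gapdhs, which forms the sperm-tail glyceraldehyde-3-phosphate dehydrogenase, had the highest level of all members, with a mean of 1180.2 FPKM over the 6 libraries. It was followed by Hk1 (823 FPKM), Pgk2 (559.7 FPKM), Eno1 (272 FPKM), Tpi1 (219.8 FPKM) and Aldoa (186 FPKM). The ranges over the 6 libraries did not overlap between neighbours in this order. These 6 were the members above 100 FPKM, and 23 of the 34 members were above 10 FPKM. All members together made up 0.82% to 0.906% of the summed FPKM of the DM libraries and 0.819% to 0.895% of that of the Nor libraries, so the groups overlapped.

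**Figure D1:**
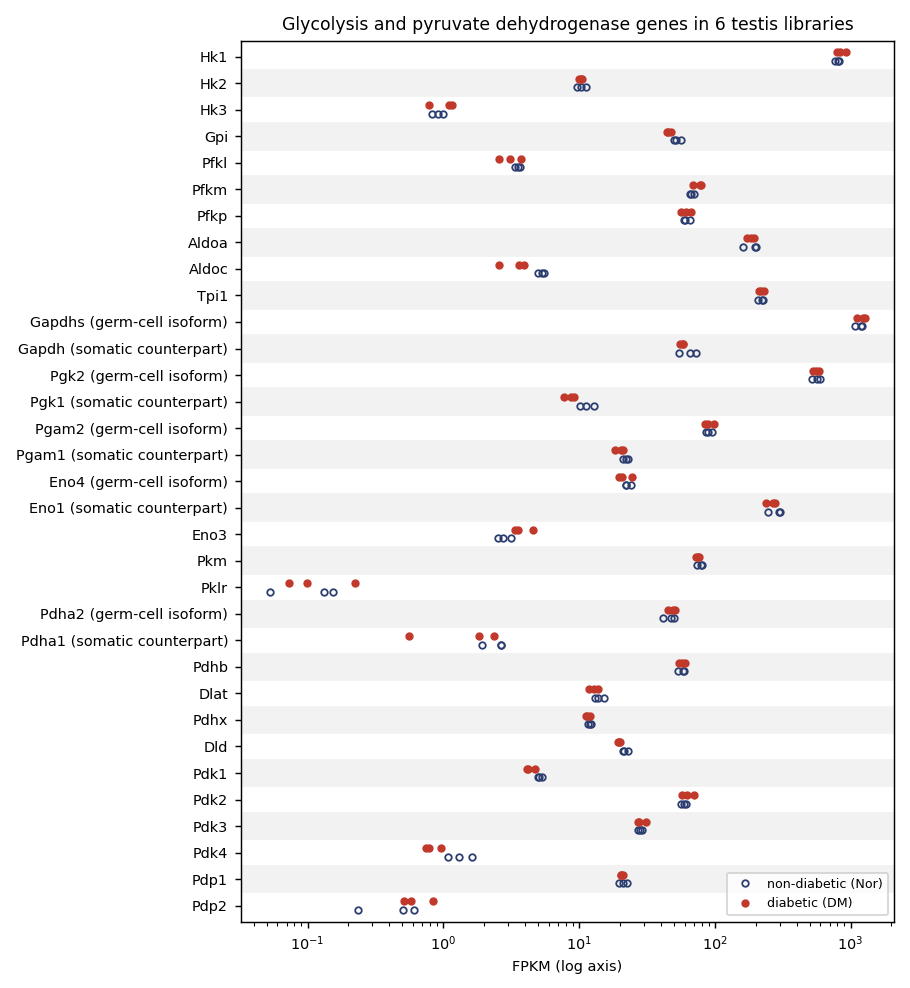
Level of 33 members in each testis library, in FPKM on a log axis, in the order of the pathway from top to bottom. Filled red points are the 3 diabetic and open blue points the 3 non-diabetic libraries. Eno2 is left out because it was listed at 0 in 4 libraries. Gapdhs, Hk1 and Pgk2 lie farthest to the right in both groups.

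DM and Nor libraries were tested against each other in limma, with log2(FPKM + 0.1) as the measure. A mean of 0.5 FPKM or more was required, which 20338 genes and 32 of the 34 members reached. Eno2 and Pklr lay below that level. At an adjusted p-value below 0.05, 0 of the 32 members were called, against 0.0344% of all genes tested, and the smallest adjusted p-value of a member was 0.436. At an unadjusted limma p-value below 0.05, 4 members were lower in DM (Aldoc, Pgk1, Gpi and Pdk4), where 4.99% of all genes were, and 1 member was higher (Eno3), where 2.47% of all genes were. A log2 fold change of 1 or more in either direction together with an unadjusted p-value below 0.05, the criterion of the study, was met by 0 members and by 1.24% of all genes tested. The study screened transcripts in DESeq2, so that these counts from limma on genes cannot be set against its own. The DM and Nor libraries did not overlap for 7 members that were lower in DM (the background share is 8.42% of all genes) and for 1 that was higher (4.56%). Over the 32 members the median log2 fold change was -0.025, and over all genes it was -0.021. The median absolute log2 fold change was 0.098 for the members and 0.11 for all genes, and for 24 of the 32 members it was below 0.2.

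**Figure D2:**
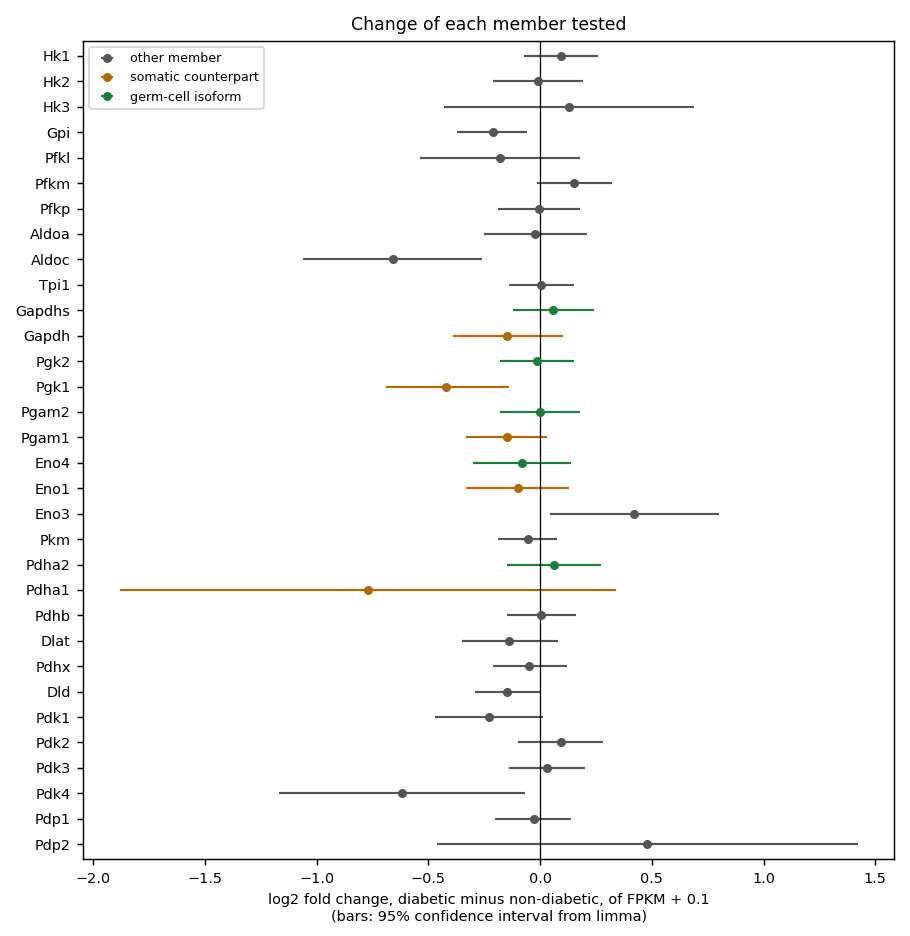
Log2 fold change of the 32 members tested, diabetic minus non-diabetic, on the log2(FPKM + 0.1) scale, with bars for the 95% confidence interval from limma. Green marks germ-cell isoforms, orange their somatic counterparts and grey the other members. The 5 green points lie between -0.08 and 0.063, and the 5 orange points between -0.77 and -0.1.

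The germ-cell isoforms and their somatic counterparts are the pairs of genes that carry out the same reaction. The DNA before their start sites is shown here because it is a property in which the partners differ and which the expression values did not define. Promoter sequences from RefSeq (build GRCr8) matched 31 of the 34 members, and Pgk1, Pdp1 and Pdp2 were not among them. Only the first listed start site of each member was used. Over all promoters with an annotated gene, 57.8% of start sites equalled the gene start, so the sites used need not be the only ones. In the 250 bases before the start site, all promoters of the table (33469) held a median of 5 CG dinucleotides and the 31 members a median of 15. The 33469 promoters were not limited to protein-coding genes or to a single promoter per gene, so these medians are of unlike sets. Gapdhs held 2 and Gapdh 17, Pgam2 held 2 and Pgam1 25, Pdha2 held 10 and Pdha1 19, whereas Eno4 held 20 and Eno1 11. Pgk2 held 7. The 120 bases directly before the start site are printed 5′ to 3′ on the strand of the gene, with each CG in capitals.
Gapdhs (chr1:95121056-95121175, minus strand): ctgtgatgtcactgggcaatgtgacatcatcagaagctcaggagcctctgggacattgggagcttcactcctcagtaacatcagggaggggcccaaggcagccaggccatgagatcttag
Gapdh (chr4:159652468-159652587, minus strand): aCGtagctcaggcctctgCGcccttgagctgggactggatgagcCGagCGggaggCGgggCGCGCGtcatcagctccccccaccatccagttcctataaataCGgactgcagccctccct
Pgk2 (chr9:27976793-27976912, plus strand): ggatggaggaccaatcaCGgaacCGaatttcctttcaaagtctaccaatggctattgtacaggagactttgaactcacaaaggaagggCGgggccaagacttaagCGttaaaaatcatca
Pgam2 (chr14:84897875-84897994, minus strand): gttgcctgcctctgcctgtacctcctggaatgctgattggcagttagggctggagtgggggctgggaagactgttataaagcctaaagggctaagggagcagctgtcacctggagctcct
Pgam1 (chr1:250673032-250673151, plus strand): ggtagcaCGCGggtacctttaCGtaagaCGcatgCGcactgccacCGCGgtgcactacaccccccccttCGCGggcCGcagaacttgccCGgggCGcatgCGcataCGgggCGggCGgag
Eno4 (chr1:268082442-268082561, plus strand): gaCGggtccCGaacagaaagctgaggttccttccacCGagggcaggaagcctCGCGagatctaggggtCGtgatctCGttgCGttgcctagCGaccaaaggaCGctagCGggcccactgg
Eno1 (chr5:166002747-166002866, plus strand): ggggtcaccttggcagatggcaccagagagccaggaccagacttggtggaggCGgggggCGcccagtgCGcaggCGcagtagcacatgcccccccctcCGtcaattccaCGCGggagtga
Pdha2 (chr2:232547099-232547218, minus strand): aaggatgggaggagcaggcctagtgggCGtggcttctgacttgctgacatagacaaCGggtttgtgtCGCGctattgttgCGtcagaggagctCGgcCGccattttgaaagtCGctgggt
Pdha1 (chrX:38509038-38509157, plus strand): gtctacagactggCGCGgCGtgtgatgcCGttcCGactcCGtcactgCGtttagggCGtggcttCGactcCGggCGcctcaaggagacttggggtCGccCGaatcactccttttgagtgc

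Further motifs were counted in the 250 bases of each member, on both strands. The TATA motif TATAAA was found in 4 of the 31 members, among them Gapdh and Pgam2, and in 12.9% of all promoters. The GC box GGGCGG was found in 16 of the 31 members, among them Pgk2, Eno4, Pgam1 and Pdha1, and in 30.5% of all promoters. TGACG, a half-site of the cyclic AMP response element that CREM and CREB bind, was found in 9 of the 31 members, among them Pdha2, Eno4, Gapdh, Eno1 and Pdha1, and in 18.2% of all promoters. The shares of all promoters are over the same set, which was not limited to protein-coding genes. Binding to these letters was not measured.

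Gapdhs was at 1271, 1226 and 1115 FPKM in the DM libraries and at 1213, 1185 and 1071 FPKM in the Nor libraries. The groups overlapped, and the log2 fold change was 0.059 (95% confidence interval -0.12 to 0.24, adjusted p = 0.924 from limma). Gapdh, the somatic enzyme that is often taken as a reference gene, was at 58.2, 55.5 and 58.6 FPKM in DM and at 65.4, 72.5 and 54.2 FPKM in Nor libraries. Its Nor values were on both sides of the DM values, with a log2 fold change of -0.15 (interval -0.39 to 0.1, adjusted p = 0.838 from limma). Without Nor replicate 3, the lowest Nor library, the log2 fold change of Gapdh was -0.26 and its unadjusted p-value from limma was 0.0103. In every library Gapdhs held 94.2% to 95.7% of the summed FPKM of the pair.

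Pgk2 makes the phosphoglycerate kinase of spermatids, which forms the first ATP of glycolysis. It was at 584, 558 and 527 FPKM in DM and at 569, 598 and 522 FPKM in Nor libraries, and its log2 fold change was -0.016 (interval -0.18 to 0.15, adjusted p = 0.978 from limma). Pgk1, the X-linked form of other tissues, was at 9.17, 7.68 and 8.7 FPKM in DM and at 11.2, 12.9 and 10.2 FPKM in Nor libraries. Every DM library was below every Nor library for Pgk1. The mean of Pgk1 was 8.52 ± 0.761 FPKM (SD, n = 3) in DM and 11.4 ± 1.4 FPKM (SD, n = 3) in Nor libraries, or 0.745 times the Nor level. This was a log2 fold change of -0.42 (interval -0.69 to -0.14), with an unadjusted p of 0.00856 and an adjusted p of 0.488 from limma, so that Pgk1 passed only without adjustment.

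Pdha2 encodes the germ-cell E1 alpha subunit, which decarboxylates pyruvate. It was at 51, 48.9 and 45 FPKM in DM and at 41.2, 47.9 and 50 FPKM in Nor libraries, with a log2 fold change of 0.063 (interval -0.15 to 0.27, adjusted p = 0.928 from limma). Pdha1, its X-linked counterpart, was at 1.84, 0.558 and 2.36 FPKM in DM and at 2.67, 2.68 and 1.93 FPKM in Nor libraries. DM replicate 2 stood far below the other libraries, and the log2 fold change of Pdha1 was -0.77 (interval -1.88 to 0.34, adjusted p = 0.801 from limma). Without DM replicate 2 the log2 fold change of Pdha1 was -0.2, and without DM replicate 3 it was -1.15 with an unadjusted p-value of 0.0489 from limma. The summed Leydig markers were also lowest in DM replicate 2, at 26.8 FPKM against 40.3 and 55.4 FPKM in DM replicates 1 and 3. Star was at 16.7, 7.7 and 22.8 FPKM and Cyp11a1 at 9.8, 5.71 and 13.8 FPKM in DM replicates 1 to 3. Cyp17a1 and Lhcgr differed little between these libraries, and Insl3 was lowest in DM replicate 1. The part of the Leydig markers in the level of Pdha1 was not tested. A Pdha1-like row, Pdha1l1, was at 0.334 to 0.403 FPKM in DM and 0.438 to 0.793 FPKM in Nor libraries. Fragments of Pdha1 and Pdha1l1 could have been assigned to either.

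Eno4, the enolase of the sperm tail, was the germ-cell isoform that did not lead its reaction. It was at 20.6, 24.6 and 19.8 FPKM in DM and at 22.1, 22.3 and 24 FPKM in Nor libraries, with a log2 fold change of -0.08 (interval -0.3 to 0.14, adjusted p = 0.918 from limma). Eno1, the enolase of most tissues, was at 270.3, 277 and 238 FPKM in DM and at 303, 297 and 247 FPKM in Nor libraries. The groups overlapped for both genes, and the log2 fold change of Eno1 was -0.1 (interval -0.33 to 0.13, adjusted p = 0.887 from limma). It was -0.2 without Nor replicate 3, with an unadjusted p of 0.0509 from limma, and -0.036 without DM replicate 3. Eno4 held 6.81% to 8.86% of the sum of these 2 genes.

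Pgam2, the phosphoglycerate mutase of muscle and sperm, was at 98, 89.1 and 84 FPKM in DM and at 88.5, 96.1 and 86.1 FPKM in Nor libraries. Its log2 fold change was 0.0014 (interval -0.18 to 0.18, adjusted p = 0.998 from limma). Pgam1, the form of brain and most other tissues, was at 18.3, 20.9 and 20.5 FPKM in DM and at 21, 22.8 and 22.3 FPKM in Nor libraries. Although the groups of Pgam1 did not overlap, the nearest libraries were almost equal, and the log2 fold change was -0.15 (interval -0.33 to 0.031, adjusted p = 0.749 from limma). Skeletal muscle markers (4 genes measured of 5 listed) summed to 3.86 to 4.7 FPKM in DM and 3.08 to 3.32 FPKM in Nor libraries, with Mylpf and Acta1 making up most of the sum and Ckm and Tnnt3 at most at 0.247 FPKM, and their part in the level of Pgam2 was not tested. Pgam2 held 79.4% to 84.3% of the sum of the pair.

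Whether an isoform and its counterpart changed differently was tested on the log2 ratio of the partners within each library, with an exact two-sided permutation test over the 5 pairs. The smallest p-value that 3 against 3 libraries allow is 0.1, so that no pair could pass 0.05. The mean ratio was higher in DM for 5 of the 5 pairs, by 0.025 to 0.83 in the log2 ratio, and the groups did not overlap for 1 of them. No share over other gene pairs was worked out to set beside these counts. Of the 17 tested members with a mean of at most 40 FPKM, 13 had a negative log2 fold change. Of the 15 members above 40 FPKM, 7 did. Pgk1, Pdha1 and Pgam1, and also Eno4, were among the 17. The part of the expression level in these ratios was not tested. Pgk2 was 63.7, 72.6 and 60.6 times the level of Pgk1 in DM and 51, 46.2 and 51.3 times in Nor libraries. That difference was 0.4 in the log2 ratio (exact permutation test, p = 0.1, adjusted p = 0.333 over the 5 pairs), and it stayed between 0.33 and 0.46 when each library was left out in turn. Gapdhs was 21.8, 22.1 and 19 times the level of Gapdh in DM and 18.5, 16.3 and 19.8 times in Nor libraries, a difference of 0.21 (exact permutation test, p = 0.2, adjusted p = 0.333) that was 0.13 without Nor replicate 2.

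The groups also overlapped for the other 3 pairs. Pdha2 was 27.7, 87.6 and 19.1 times the level of Pdha1 in DM and 15.4, 17.9 and 25.9 times in Nor libraries, a difference of 0.83 (exact permutation test, p = 0.2, adjusted p = 0.333) that was 0.25 without DM replicate 2 and 1.26 without DM replicate 3. The Pgam2 to Pgam1 ratio differed by 0.15 (exact permutation test, p = 0.4, adjusted p = 0.5) and was 0.032 without DM replicate 1. The Eno4 to Eno1 ratio differed by 0.025 (exact permutation test, p = 0.8, adjusted p = 0.8), and it changed sign when a single library was left out. The same libraries give all 5 ratios, so the pairs are not independent of each other. The summed Leydig and macrophage markers were also lower in every DM library than in every Nor library. Summed markers of Sertoli cells, of peritubular cells and smooth muscle, of endothelium and of adipocytes overlapped between the groups. The part of these cell types in the somatic counterparts was not tested.

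**Figure D3:**
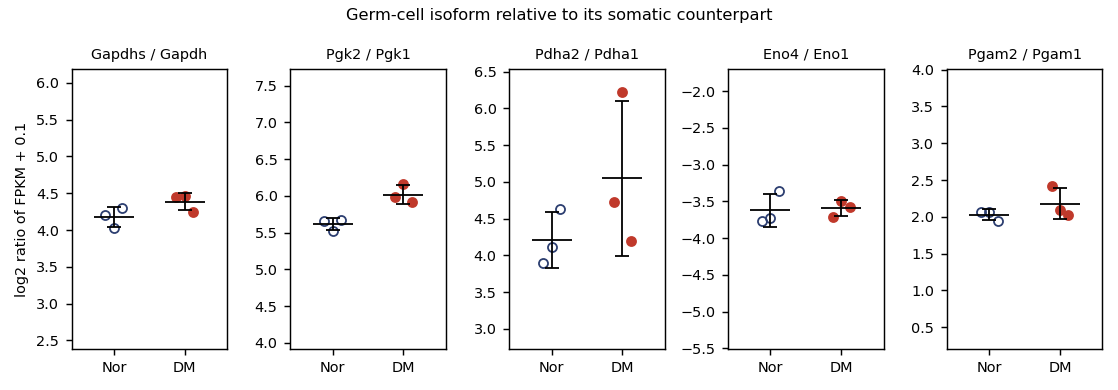
Log2 ratio of each germ-cell isoform to its somatic counterpart, from FPKM + 0.1, in every library. Open blue points are non-diabetic (Nor) and filled red points diabetic (DM) libraries, bars are the mean with its SD over 3 libraries, and the axes of all panels span the same number of log2 units. The groups are separate for Pgk2 to Pgk1 alone among these 5 pairs, and the diabetic points of Pdha2 to Pdha1 are the most spread.

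The first steps of glycolysis, from hexokinase to aldolase, were led by a few genes whose groups overlapped, with the single exception of Gpi. Hk1, which traps glucose in the cell and is known to have a transcript of its own in spermatids, was at 921, 835 and 795 FPKM in DM and at 816, 811 and 762 FPKM in Nor libraries. Its log2 fold change was 0.093 (interval -0.072 to 0.26, adjusted p = 0.845 from limma), and it held 98.5% to 98.8% of the FPKM of the 3 hexokinases. Hk2, the insulin-responsive hexokinase of muscle and fat, was at 10.3 ± 0.325 FPKM in DM and 10.4 ± 0.803 FPKM in Nor libraries, and Hk3 at 1.01 ± 0.206 and 0.909 ± 0.0816 FPKM (SD, n = 3 each). The groups overlapped for both.

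Gpi, which turns glucose-6-phosphate into fructose-6-phosphate, had the highest level of the 5 members with an unadjusted limma p-value below 0.05. It was at 44.3, 47.2 and 45 FPKM in DM and at 51.7, 56.6 and 50.1 FPKM in Nor libraries, and every DM library was lower. The mean was 45.5 ± 1.51 FPKM in DM and 52.8 ± 3.38 FPKM in Nor libraries (SD, n = 3 each), or 0.862 times the Nor level. In limma this gave a log2 fold change of -0.21 (interval -0.37 to -0.057), an unadjusted p of 0.0145 and an adjusted p of 0.544.

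Phosphofructokinase, the committed step of glycolysis, was shared between the muscle and the platelet form. Pfkm was at 77.6, 79.4 and 68.8 FPKM in DM and at 70.3, 67.2 and 65.1 FPKM in Nor libraries, a log2 fold change of 0.15 (interval -0.014 to 0.32, adjusted p = 0.71 from limma). A pair of DM libraries lay above the Nor range and the other within it. Pfkp was at 61.7 ± 5.36 FPKM in DM and 61.7 ± 3.21 FPKM in Nor libraries, and Pfkl, the liver form, at 3.14 ± 0.579 and 3.54 ± 0.153 FPKM (SD, n = 3 each), with overlapping groups for both. Pfkm held 48.6% to 54.6% of the sum of the 3 genes.

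Aldolase splits fructose-1,6-bisphosphate into trioses. Aldoa, its main form, was at 195, 186 and 172 FPKM in DM and at 199, 202 and 162 FPKM in Nor libraries, and the groups overlapped (log2 fold change -0.022, interval -0.25 to 0.21, adjusted p = 0.98 from limma). A retrogene of Aldoa, Aldoart2, was listed at 128 to 160.4 FPKM, so that fragments of the germ-cell copy and of Aldoa could have been assigned to either. Aldoc, the aldolase best known from brain, was at 3.62, 2.56 and 3.91 FPKM in DM and at 5.37, 5.53 and 4.99 FPKM in Nor libraries, with all DM libraries below all Nor libraries. Its mean was 3.36 ± 0.713 FPKM in DM and 5.3 ± 0.274 FPKM in Nor libraries (SD, n = 3 each), or 0.635 times the Nor level. The log2 fold change of Aldoc was -0.66 (interval -1.06 to -0.26), with an unadjusted p of 0.00543, the lowest of the members, and an adjusted p of 0.436 from limma.

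Triosephosphate isomerase and pyruvate kinase, at the middle and the end of glycolysis, differed little between the groups. Tpi1 was at 219.9, 230.2 and 211 FPKM in DM and at 228, 224 and 207 FPKM in Nor libraries, a log2 fold change of 0.0057 (interval -0.14 to 0.15, adjusted p = 0.995 from limma). A row described as a triosephosphate isomerase-like gene, LOC100911515, was at 189 to 209.6 FPKM, nearly as high as Tpi1 itself, so that the level of Tpi1 is uncertain. Pkm, the pyruvate kinase of most tissues, was at 72.7, 76.4 and 75.2 FPKM in DM and at 80.4, 78.5 and 74.1 FPKM in Nor libraries (log2 fold change -0.055, interval -0.19 to 0.077, adjusted p = 0.902 from limma). An M2 pyruvate kinase-like row, LOC100364062, was at 12.3 to 12.9 FPKM, so that fragments could have been assigned to either. Pklr, the form of liver and red blood cells, was at most 0.222 FPKM in any library and was not tested.

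The remaining enolases were low. Eno3, the enolase of muscle, was at 3.37, 3.52 and 4.59 FPKM in DM and at 2.52, 2.76 and 3.16 FPKM in Nor libraries, and every DM library was higher. Its mean was 3.82 ± 0.668 FPKM in DM and 2.81 ± 0.323 FPKM in Nor libraries (SD, n = 3 each), or 1.36 times the Nor level, with a log2 fold change of 0.42 (interval 0.044 to 0.8), an unadjusted p of 0.0335 and an adjusted p of 0.647 from limma. The unadjusted p-value of Eno3 was 0.109 without DM replicate 3, 0.103 without Nor replicate 1 and 0.0769 without Nor replicate 2. Among the muscle markers, Mylpf was also higher in DM, at 2.73 to 3.65 against 1.97 to 2.41 FPKM, whereas Acta1 overlapped between the groups, and their part in the level of Eno3 was not tested. Eno2, the neuronal enolase, was listed at 0 in 4 libraries, at 0.631 FPKM in DM replicate 3 and at 0.0016 FPKM in Nor replicate 3. Because a gamma-enolase-like row was listed at 0.608 and 0.462 FPKM in 1 library of each group and at 0 in the other 4, no fold is given for Eno2.

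**Figure D4:**
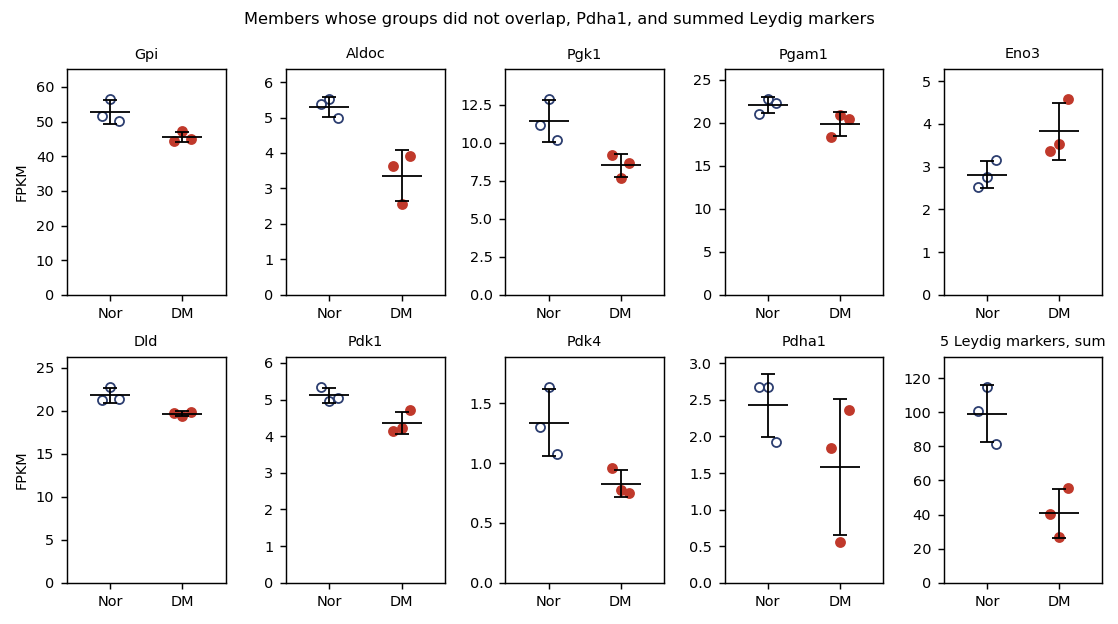
FPKM of the 8 members whose diabetic and non-diabetic libraries did not overlap, of Pdha1, and of the sum of 5 Leydig cell markers. Open blue points are non-diabetic (Nor) and filled red points diabetic (DM) libraries, and bars are the mean with its SD over 3 libraries. All axes start at 0. The red points are lower for 7 of the 8 members and higher for Eno3, and for Pdha1 and the summed Leydig markers the lowest point is the same diabetic library.

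In the pyruvate dehydrogenase complex, 0 of the 6 subunits reached an unadjusted limma p-value below 0.05. Pdhb, the E1 beta subunit that pairs with Pdha2 or Pdha1, was at 57.2, 54.3 and 59.9 FPKM in DM and at 53.7, 59.1 and 58.2 FPKM in Nor libraries, a log2 fold change of 0.003 (interval -0.15 to 0.16, adjusted p = 0.997 from limma). Its level lay near the summed level of the E1 alpha genes, which was 47.4 to 52.9 FPKM in DM and 43.8 to 51.9 FPKM in Nor libraries. Dlat, the E2 acetyltransferase core, was at 11.8, 13.8 and 12.8 FPKM in DM and at 15.3, 13.2 and 13.7 FPKM in Nor libraries. Pdhx, which tethers E3 to the core, was at 12, 11.4 and 11.3 FPKM in DM and at 11.6, 12.3 and 12 FPKM in Nor libraries. The groups overlapped for Dlat and Pdhx, with log2 fold changes of -0.14 and -0.048 (adjusted p = 0.829 and 0.929 from limma).

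Dld, the E3 dehydrogenase that this complex shares with other 2-oxoacid dehydrogenases, was the subunit with separate groups. It was at 19.7, 19.4 and 19.9 FPKM in DM and at 21.2, 22.8 and 21.4 FPKM in Nor libraries. The DM libraries were close together, and the mean was 0.902 times the Nor level. Its log2 fold change was -0.15 (interval -0.29 to 0.00049), with an unadjusted p of 0.0506 and an adjusted p of 0.67 from limma.

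Of the 4 kinases that phosphorylate E1 alpha and switch the complex off, Pdk1 and Pdk4 had separate groups and Pdk2 and Pdk3 did not. Pdk2 was the most abundant of them, at 62.8, 69.7 and 57.3 FPKM in DM and 59.7, 61.3 and 56.8 FPKM in Nor libraries, and it held 61% to 68.5% of the FPKM of the 4 kinases. Its groups overlapped (log2 fold change 0.091, interval -0.1 to 0.28, adjusted p = 0.878 from limma). Pdk3, which is X-linked, was at 28.7 ± 2.17 FPKM in DM and 28 ± 0.796 FPKM in Nor libraries (SD, n = 3 each), with a difference smaller than the spread. Pdk1, the hypoxia-responsive kinase, was at 4.15, 4.21 and 4.71 FPKM in DM and at 5.35, 4.95 and 5.04 FPKM in Nor libraries. All DM libraries were lower for Pdk1, and the log2 fold change was -0.23 (interval -0.47 to 0.014, adjusted p = 0.693 from limma).

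Pdk4, which in heart and muscle is known to rise with fasting and diabetes, had its lowest levels in the DM testes. It was at 0.956, 0.779 and 0.751 FPKM in DM and at 1.3, 1.64 and 1.08 FPKM in Nor libraries, without overlap. The mean of Pdk4 was 0.829 ± 0.111 FPKM in DM and 1.34 ± 0.281 FPKM in Nor libraries (SD, n = 3 each), or 0.618 times the Nor level. Its log2 fold change was -0.62 (interval -1.17 to -0.07), with an unadjusted p of 0.0321 and an adjusted p of 0.636 from limma. The unadjusted p-value of Pdk4 rose to 0.0741 without DM replicate 2, 0.0813 without DM replicate 3, 0.0661 without Nor replicate 1 and 0.113 without Nor replicate 2.

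The phosphatases reverse the action of the kinases. Pdp1 was at 21.2, 20.5 and 20.4 FPKM in DM and at 21.1, 22.7 and 19.7 FPKM in Nor libraries, and it held 96.2% to 98.9% of the FPKM of the pair. Its DM values lay within the Nor range (log2 fold change -0.028, interval -0.2 to 0.14, adjusted p = 0.967 from limma). Pdp2 was at 0.644 ± 0.177 FPKM in DM and 0.449 ± 0.194 FPKM in Nor libraries (SD, n = 3 each), with overlapping groups and a wide interval of its log2 fold change, from -0.46 to 1.42.

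When the isoforms of each reaction were summed, the total overlapped between the groups for each reaction that is served by more than 1 member. The hexokinases summed to 806 to 932 FPKM in DM and 772 to 828 FPKM in Nor libraries, and the glyceraldehyde-3-phosphate dehydrogenases to 1174 to 1329.5 and 1125 to 1278 FPKM. The phosphoglycerate kinases summed to 536 to 593 FPKM in DM and to 532 to 611 FPKM in Nor libraries, sums of which Pgk2 held 97.9% to 98.6%.

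Genes around the pathway were read from a list of 51 symbols that feed it, branch from it or take up its products. Of these, 45 labelled a row of the table and 36 were tested. At an unadjusted limma p-value below 0.05, 3 were lower in DM and 1 was higher, where 4.99% and 2.47% of all genes were, and at an adjusted p-value below 0.05 none were called (smallest adjusted p = 0.273). The median log2 fold change over the 36 genes was -0.023. The higher gene was Slc16a3, the lactate exporter MCT4, at 2.89, 3.29 and 2.43 FPKM in DM and 1.57, 1.38 and 1.58 FPKM in Nor libraries, a log2 fold change of 0.88 (interval 0.49 to 1.26, adjusted p = 0.273 from limma).

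Tkt and Gpd1, which lie on branches of glycolysis, were among the 3 genes that were lower without adjustment. Tkt, the transketolase of the pentose phosphate pathway, was at 7.57 ± 0.245 FPKM in DM and 9.82 ± 1.1 FPKM in Nor libraries (SD, n = 3 each). It differed by -0.37 on the log2 scale (adjusted p = 0.485 from limma). Gpd1, the cytosolic glycerol-3-phosphate dehydrogenase, was at 6.32 ± 0.495 and 8.04 ± 0.65 FPKM (SD, n = 3 each). The log2 difference of Gpd1 was -0.34 (adjusted p = 0.535 from limma). Every DM library was below every Nor library for both Tkt and Gpd1. Ldhc, the lactate dehydrogenase of germ cells, was at 613 ± 41.1 FPKM in DM and 606 ± 69.6 FPKM in Nor libraries (SD, n = 3 each), and Ldha at 357 ± 23.3 and 346 ± 22.4 FPKM (SD, n = 3 each). Both overlapped between the groups.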

How the data were processed

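Testis RNA-Seq of 3 DM and 3 Nor libraries was used, grouped by the sample titles. The deposited table holds FPKM per gene, which the authors made after BWA screening against rRNA, STAR alignment and StringTie assembly. Tool versions and the genome build are not given in the sources used here. The authors screened transcripts with DESeq2, which FPKM do not allow.

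FPKM were analysed as log2(FPKM + 0.1), which understates the change of low genes. The 20338 genes whose mean reached 0.5 FPKM entered limma 3.58.1 (R 4.3.3, eBayes with trend). Its two-sided p-values were adjusted over all of these genes by Benjamini-Hochberg. For ratios an exact permutation test was run (Python 3.11.15, scipy 1.17.1). Depth in reads is unknown, so that precision rests on the spread between 3 libraries. Only the limma fit was tested on simulated data, with planted changes larger than the largest of a member (0.772 on the log2 scale). The simulation therefore cannot tell whether changes of the size seen in the members would be found. The ratio test and the promoter counts were not simulated. The members, pairs and lists were chosen with earlier results of these data known. Values in every library are given for the isoform pairs, for members with an unadjusted p-value below 0.05 or with separate groups, and for the leading gene of each step. Neighbouring genes of the pathway are named at an unadjusted p-value below 0.05, except 1 gene that is not reported here, and Ldhc and Ldha were named after their values were seen. Alternatives were other pseudocounts, filters, scalings and eBayes settings, a replicate block, protein-coding genes only, summed symbols and leaving out each library.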

Additional observations from a re-analysis of the deposited data

How the results depend on the processing

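Alternatives were run for the counts, for the isoform pairs and for the log2 fold changes of 14 members. The count of members with an adjusted p-value below 0.05 was 0 under every alternative. The count with an unadjusted p-value below 0.05 was 5 and lay between 5 and 6 under the 11 alternatives that kept all libraries, and between 3 and 6 when each library was left out, with 3 both without Nor replicate 1 and without Nor replicate 2. The higher members were 1 in the reported fit and 2 with median-ratio scaling and with the replicate block, and between 0 and 1 when each library was left out. The lower members were between 3 and 5. Members past the study's criterion were 0, and 1 without DM replicate 3, in a range of 0 to 1 over the left-out libraries. The neighbouring genes called were 4, and between 4 and 6 when each library was left out. The log2 fold change of Pgk2 was 0.013 with median-ratio scaling, which moved the median of all genes from -0.021 to 0.0079. With each library left out it ranged from -0.07 to 0.029 for Pgk2, from -0.059 to 0.053 for Pgam2 and from -0.02 to 0.12 for Pdha2, and the Eno4 to Eno1 difference ranged from -0.051 to 0.15. The cause was not tested. With the somatic counterpart summed with its listed copies, an alternative chosen after seeing the data, the differences were 0.2 for Gapdhs to Gapdh, 0.79 for Pdha2 to Pdha1 and 0.018 for Eno4 to Eno1.

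DM and Nor libraries carry the same replicate numbers, and the labels do not say that a number marks a shared origin. Deviations from the group means correlated at 0.106, 0.0153 and 0.0979 between same-numbered libraries, and DM replicate 2 correlated best with another number. With the replicate block, 5 members had an unadjusted limma p-value below 0.05, of which 3 were lower and 2 higher, and the p-value of Pdk4 was 0.0522. Groups of 3 libraries were not tested for outlying samples, and the unknown depth limits the genes below 1 FPKM most.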
